A study of Mus musculus with 4 samples.

Results

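The 10 genes described here encode proteins that make, conjugate, carry and sense bile acids in the liver. Cyp7a1, Cyp8b1, Cyp27a1 and Cyp7b1 are cytochrome P450 enzymes of bile acid synthesis, Slc27a5 and Baat act in conjugation, Slc10a1 and Abcb11 are carriers of the hepatocyte membrane, and Nr1h4 and Nr0b2 are the nuclear receptors FXR and SHP. The genes were chosen by name for their roles and not by a rule on their counts, although earlier results of these data were known, and all 10 were present among the 33924 gene symbols of the count tables. The data came from livers of untreated male C57BL/6Rj mice (C57BL6 in the labels) at 4 ages, 3 months (Young), 9 months (Adult), 15 months (Old) and 21 months (Very old). Each age was represented by 1 library, made from the pooled RNA of 24 mice, 4 at each of 6 times of the day. The design therefore averages over the daily rhythm and over animals, and no replicate error exists for any value of an age.

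Bile acids are made from cholesterol in hepatocytes. In the classical route, Cyp7a1 sets the rate by hydroxylating cholesterol and Cyp8b1 directs the product towards cholic acid, whereas the alternative route starts with Cyp27a1 in mitochondria and proceeds through Cyp7b1. The acids are activated to CoA esters, joined to taurine in the mouse, exported into bile through the bile salt export pump and taken up again from portal blood. FXR is activated by bile acids and induces SHP, which represses Cyp7a1 and Cyp8b1, and the expression of Cyp7a1 is known to follow a daily rhythm.

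The libraries were built on the capped 5’-ends of transcripts, and the DNA just upstream of a gene’s start holds its core promoter. The 100 bases before the RefSeq start of the members with the highest and the lowest variance between ages (values below) are shown, 5’ to 3’ on the strand of the gene. The capitals mark TATAAA, the letters of a TATA box. Both are shown because they are the start regions of the genes that differed most and least.
Nr0b2 (chr4:133109191-133109290, plus strand, NCBIM37): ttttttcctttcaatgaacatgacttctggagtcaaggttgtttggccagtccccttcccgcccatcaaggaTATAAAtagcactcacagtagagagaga
Cyp8b1 (chr9:121825424-121825523, minus strand, NCBIM37): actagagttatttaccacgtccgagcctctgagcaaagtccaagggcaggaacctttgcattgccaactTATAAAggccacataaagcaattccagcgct
The match began 28 bases before the start of Nr0b2 and 31 bases before that of Cyp8b1. Both sequences came from the RefSeq promoter table and were located in NCBIM37, the assembly also called mm9, by an exact match. The table held 6 of the 10 genes, in windows from 250 bases before to 50 bases after the start. In these windows TATAAA was found, on either strand, for Cyp8b1, Nr0b2 and Slc10a1, and in 13.6% of all 32851 promoters. CACGTG, an E-box, was found for Nr0b2 only, and in 7.15% of all promoters. CAAGGTCA, the half-site of monomeric nuclear receptors, and TTATGTAA, a D-box, were found in no window of a member and in 1.56% and 0.938% of all promoters. The strict IR-1 and DR-1 repeats of AGGTCA, spaced by any 1 base, and the strict HNF1 palindrome were likewise in no window of a member, and in 0.00913%, 0.0396% and 0.00913% of all promoters. The gene counts do not tell at which base a read started.

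The counts on genes summed to between 525772 (15 months) and 958586 (9 months) per library. A single count equalled between 1.04 and 1.90 cpm, the counts of a gene per 1000000 counts on genes in the library. All intervals below are 95% intervals. Except for those of the fitted age trend, they cover counting error only, not the spread between mice or between libraries. The liver label fitted its markers, as the 6 hepatocyte markers together had between 77094 and 89058 cpm. Markers of bile duct cells were near 0, with Epcam at 0 counts in every library, Krt7 and Cftr at 2 counts at 3 months and at 0 later, and a sum over the 8 markers between 45.0 and 62.8 cpm. As these are whole-liver pools, fewer cells of a type and less RNA per cell cannot be told apart.

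Together, the 10 genes had 3046, 3068, 1690 and 2430 counts in the libraries of increasing age. These were 0.319% (0.308 to 0.330%), 0.32% (0.309 to 0.332%), 0.321% (0.306 to 0.337%) and 0.33% (0.317 to 0.344%) of all counts on genes. The 4 intervals overlapped. Per kilobase of exon, the mean level over the 4 libraries was highest for Slc27a5 with 343 cpm per kb (range 304 to 367) and Cyp27a1 with 320.3 (306 to 353), followed by Cyp7b1 with 210.0 (196 to 223) and Slc10a1 with 207 (189 to 253). Baat had 138 cpm per kb (120.0 to 160.1), Cyp8b1 117 (110.2 to 121), Nr1h4 69.5 (54.5 to 80.2) and Abcb11 50.5 (47.1 to 57.8). Cyp7a1 with 17.0 cpm per kb (15.0 to 17.8) and Nr0b2 with 16.6 (4.80 to 23.1) were the lowest. The ranges overlapped between Slc27a5 and Cyp27a1, Cyp7b1 and Slc10a1, Baat and Cyp8b1, Nr1h4 and Abcb11, and Cyp7a1 and Nr0b2. Of these pairs only Baat and Cyp8b1 kept 1 order per kilobase. Baat was above Cyp8b1 in every library, also in cpm, with cpm intervals that overlapped except at 3 months. As the libraries were built on capped 5’-ends, counts are not expected to grow with exon length. The values per kilobase can therefore place genes with long exons, such as Abcb11 and Cyp7a1, too low. In cpm without division by length only Baat and Cyp8b1 of these pairs had overlapping ranges. On that scale Slc27a5, Cyp7b1, Abcb11 and Cyp7a1 were above Cyp27a1, Slc10a1, Nr1h4 and Nr0b2, respectively, in every library.

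**Figure D1:**
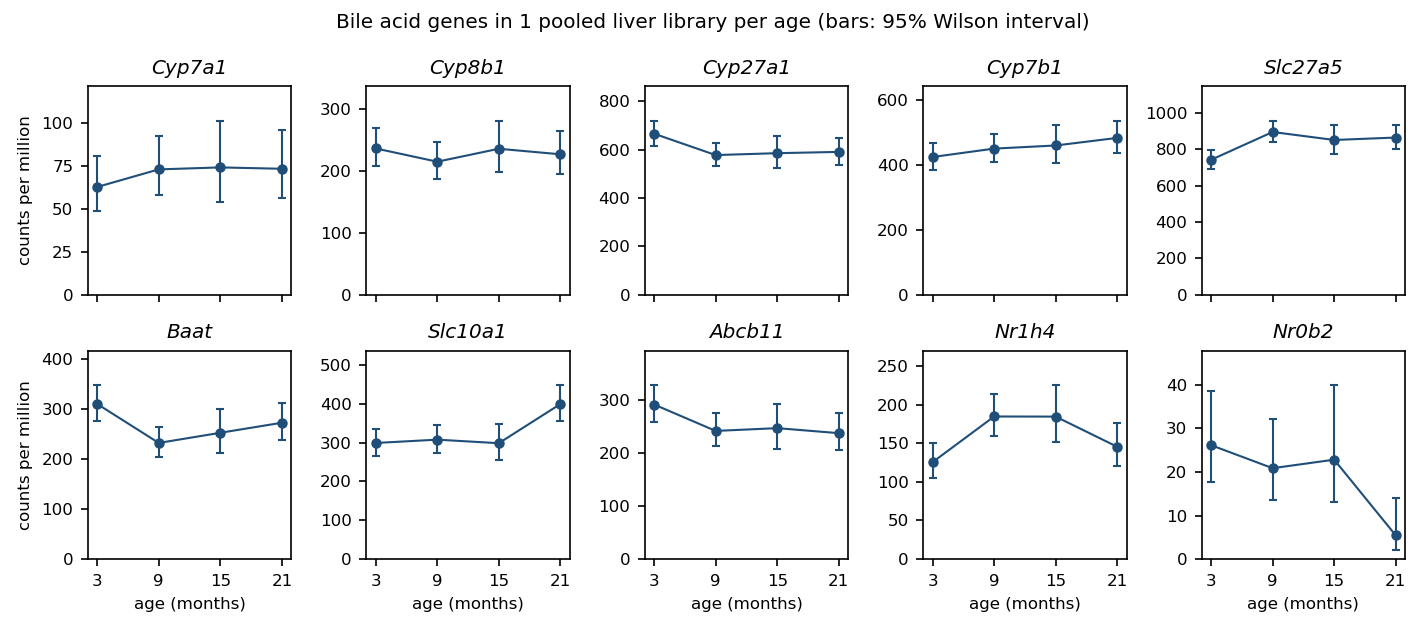
Level of each gene in cpm (vertical axes from 0) against age in months, 1 pooled library per point, with 95% Wilson intervals of counting error. Most genes stay within a narrow band, Slc10a1 is highest at 21 months (399 cpm), Nr1h4 is higher at 9 and 15 months than at 3 months, and Nr0b2 is lowest at 21 months (5.44 cpm).

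In the classical route of synthesis, no difference between the libraries beyond counting noise was detected for Cyp7a1 or Cyp8b1. Cyp7a1 (chromosome 4, 6192759 to 6202780, minus strand) had 60, 70, 39 and 54 counts at 3, 9, 15 and 21 months. As levels these were 62.8, 73.0, 74.2 and 73.4 cpm, and the lowest and highest levels had overlapping intervals (48.8 to 80.8 and 54.3 to 101 cpm). Cyp8b1 (chromosome 9, 121823474 to 121825423, minus strand), the sterol 12-alpha-hydroxylase, has 1 exon. It had 226, 206, 124 and 167 counts, or 236, 215, 236 and 227 cpm. Each gene with a mean count of at least 10 (5090 genes) was tested by Pearson’s chi-square, with counts expected in proportion to the geometric mean of each library and p-values adjusted after Benjamini-Hochberg. The adjusted p was 0.82 for Cyp7a1 and 0.85 for Cyp8b1. This test compares the 4 libraries as they were read, not the ages, and it called 37.7% of the 5090 genes at an adjusted p of 0.05. The ratio of Cyp8b1 to Cyp7a1 counts, which needs no scaling, was 3.77 (2.82 to 5.09), 2.94 (2.23 to 3.92), 3.18 (2.20 to 4.68) and 3.09 (2.26 to 4.29) in the same order of ages.

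In the alternative route, Cyp27a1 was highest in the youngest library and Cyp7b1 was not called. Cyp27a1 (chromosome 1, 74760148 to 74784464, plus strand), the sterol 27-hydroxylase, had 637, 554, 308 and 435 counts, or 666, 578, 586 and 591 cpm, at 3, 9, 15 and 21 months. The 3 later libraries lay close together and below the first (chi-square test, adjusted p = 0.0264). This call was lost without the 3 month library (adjusted p = 0.446), without the 15 month library (0.096), with library totals (0.115) and with TMM scale factors (0.102). Cyp7b1 (chromosome 3, 17971950 to 18143338, minus strand), the oxysterol 7-alpha-hydroxylase, has a U1 snRNA inside its span but outside its exons. Its counts were 406, 432, 242 and 356, or 425, 451, 460.3 and 484 cpm, and the adjusted p of the chi-square test was 0.433. The ratio of Cyp7b1 to Cyp27a1 counts was lowest at 3 months with 0.637 (0.561 to 0.723), followed by 0.78 (0.686 to 0.886), 0.786 (0.661 to 0.933) and 0.818 (0.709 to 0.944) in the older libraries. The intervals of the 3 and 21 month ratios overlapped slightly.

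Of the genes of conjugation, Slc27a5 had its lowest and Baat its highest level in the 3 month library, but only the call of Baat depended on that library. Slc27a5 (chromosome 7, 13573695 to 13583541, minus strand), the bile acid CoA ligase, had the highest counts of the 10 genes with 710, 859, 448 and 637 counts. These were 743, 896, 852 and 866 cpm, with the lowest level at 3 months (chi-square test, adjusted p = 0.00137). The call of Slc27a5 was lost without the 9 month library (adjusted p = 0.16) but kept without the 3 month library (0.0384). Baat (chromosome 4, 49502294 to 49519429, minus strand) joins the activated acid to taurine or glycine. Its counts were 297, 223, 133 and 201, or 311, 233, 253 and 273 cpm, with the highest level at 3 months (chi-square test, adjusted p = 0.021). The call of Baat was lost without the 3 month library (adjusted p = 0.533) and with TMM scale factors (0.0597). The ratio of Baat to Slc27a5 counts was 0.418 at 3 months (0.364 to 0.48) and 0.26 at 9 months (0.223 to 0.301), and these intervals did not overlap. At 15 and 21 months it was 0.297 (0.243 to 0.361) and 0.316 (0.268 to 0.37).

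Of the carriers, Slc10a1 stood highest in the oldest library, whereas Abcb11 was not called. Slc10a1 (chromosome 12, 82054172 to 82068971, minus strand) encodes NTCP, which takes up bile salts from portal blood. Its counts were 286, 295, 157 and 294, or 299, 308, 299 and 399 cpm. The first 3 libraries were close to each other and the 21 month library stood above them, with an interval (356 to 448 cpm) that did not overlap any of the other 3. The chi-square test gave an adjusted p of 0.00463, and 0.418 without the 21 month library. Abcb11 (chromosome 2, 69076339 to 69180671, minus strand) encodes the bile salt export pump. Its exons overlap the plus strand genes Gm13613 and Gm13614, and whether the counting used strand is not given in the sources used here. Abcb11 had 279, 232, 130 and 175 counts, or 292, 242, 247 and 238 cpm, with the highest level at 3 months (chi-square test, adjusted p = 0.0748). It passed the threshold without the 9 month library (adjusted p = 0.042). The ratio of Abcb11 to Slc10a1 counts had intervals that did not overlap between the youngest and the oldest library, being 0.976 at 3 months (0.824 to 1.15) and 0.595 at 21 months (0.491 to 0.72), with 0.786 (0.659 to 0.937) and 0.828 (0.651 to 1.05) at 9 and 15 months.

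The nuclear receptors had the largest relative differences among the 10 genes. Nr1h4 (chromosome 10, 88916979 to 88996330, minus strand), the bile acid receptor FXR, had 120, 177, 97 and 107 counts. These were 126, 185, 184 and 145 cpm, so that the 9 and 15 month libraries were alike and above the 3 month library, with the 21 month library in between. The chi-square test gave an adjusted p of 0.012, which rose to 0.136 without the 3 month and to 0.211 without the 9 month library. Nr0b2 (chromosome 4, 133109291 to 133112451, plus strand), which encodes SHP, has 2 exons and had the lowest counts of the 10 genes, with 25, 20, 12 and 4. Its levels were 26.2 cpm (17.7 to 38.6), 20.9 cpm (13.5 to 32.2) and 22.8 cpm (13.1 to 39.9) in the first 3 libraries and 5.44 cpm (2.11 to 14.0) in the oldest. The first 3 levels differed by less than counting noise, and the 21 month level was close to the 4.08 cpm that 3 counts make in that library. The chi-square test called Nr0b2 narrowly, with an adjusted p of 0.0418. The call rested on the 21 month library (adjusted p = 0.796 without it) and was also lost without the 3 month library (0.0634) and without the filter on low counts (0.0561). Relative to Nr1h4, the counts of Nr0b2 were 0.208 (0.13 to 0.323), 0.113 (0.0674 to 0.18), 0.124 (0.0618 to 0.226) and 0.0374 (0.01 to 0.0985). The intervals of the first and the last of these ratios did not overlap.

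To set the ages against each other, fold-changes against the 3 month library were calculated on the scale of the centered log-ratio (clr), in which each count is divided by the geometric mean of the library over the 8704 genes with a count in every library. A gene was called where the change exceeded 1.5-fold and the exact Clopper-Pearson interval of the ratio excluded 1. At 9 months only Nr1h4 was called, with a fold of 1.51 (1.19 to 1.92). Of the 5090 genes 21.3% were called at this age, 9.49% as higher and 11.8% as lower. With library totals or with the 7 marker genes of the study as the scale it stayed below 1.5-fold. At 15 months none of the 10 genes was called by this rule, beside 8.88% of all genes that were called as higher and 13.1% as lower. The highest fold was again that of Nr1h4 with 1.34 (1.02 to 1.77), and the lowest that of Baat with 0.745 (0.602 to 0.916). At 21 months only Nr0b2 was called, with a fold of 0.202 (0.0512 to 0.586), beside 20.7% of all genes in either direction and 11.6% that were lower. Its 4 and 25 counts also passed a threshold of 2-fold. Slc10a1 had a fold of 1.30 (1.10 to 1.54) and Slc27a5 of 1.13 (1.02 to 1.26), while Abcb11 with 0.793 (0.653 to 0.962) and Cyp27a1 with 0.863 (0.763 to 0.977) lay below 1. All 3 comparisons share the 3 month library, so they are not independent of each other.

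**Figure D2:**
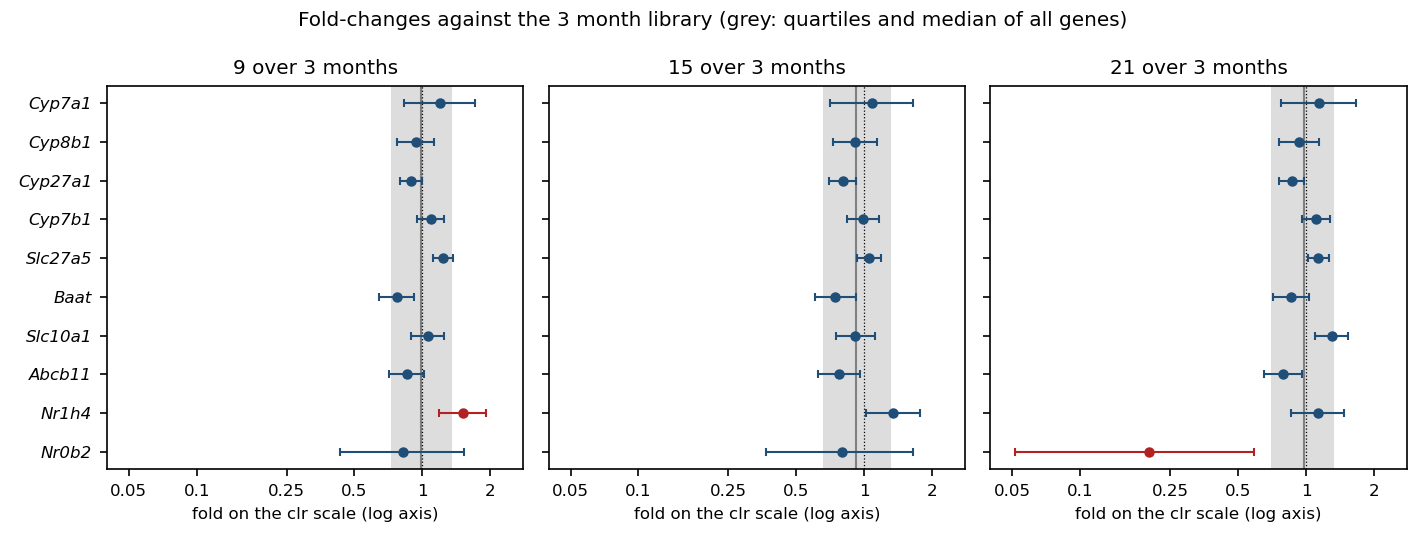
Fold-change of each gene at 9, 15 and 21 months over 3 months on the clr scale (log axis), with exact 95% Clopper-Pearson intervals of counting error, 1 pooled library per age. The grey band spans the quartiles of all genes with a mean count of at least 10 and the grey line their median. Red points are past 1.5-fold with an interval that excludes 1, namely Nr1h4 at 9 months (1.51) and Nr0b2 at 21 months (0.202).

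The median log2 fold-change of the 10 genes was -0.01 at 9 months, -0.13 at 15 months and 0.03 at 21 months, beside -0.02, -0.11 and -0.03 over all genes. At 15 months the clr scale itself thus moved the median of all genes by -0.11, and the members have to be read against this shift. For the summed counts of the 10 genes the fold was 1.01 (0.956 to 1.06) at 21 months. At 9 months it was 1.03 (0.979 to 1.08), but 0.924 with the 7 marker genes as the scale. It was 0.922 (0.869 to 0.979) at 15 months, but 1.01 with library totals or with the 7 marker genes as the scale. The quartiles of all genes lay at 0.708 and 1.32 for 21 over 3 months.

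A linear trend with age was tested over the 4 libraries with edgeR’s quasi-likelihood test. Its error is the departure of the libraries from the line, mostly shared over all genes (2 residual and 63.2 prior degrees of freedom). None of the 10 genes passed an adjusted p of 0.05, beside 6 of 5569 genes in all (0.108%), and 0 of the 10 had an unadjusted p under 0.05, beside 5.21% of all genes. DESeq2’s Wald test also called 0 of the 10 genes, with 0 at an unadjusted p under 0.05, and 0 of all genes, of which 0.816% had an unadjusted p under 0.05. The largest slope was that of Nr0b2, whose log2 change from 3 to 21 months was -1.68 with a standard error of 0.91 (edgeR, unadjusted p = 0.0696, adjusted p = 0.997, range over the alternatives 0.806 to 0.999). Without the 21 month library this slope was -0.37. The fitted slopes of the other 9 genes ranged from -0.30 for Abcb11 to 0.33 for Slc10a1, with standard errors between 0.34 and 0.48. Single libraries moved them, as Nr1h4 went from 0.13 to -0.62 without the 3 month and to 0.78 without the 21 month library. Likewise Baat went from -0.18 to 0.24 without the 3 month and to -0.51 without the 21 month library, and Slc10a1 to -0.06 without the 21 month library. For Cyp7a1 the 95% interval of the fitted change from 3 to 21 months ran from 0.58-fold to 2.17-fold, and for Cyp27a1 from 0.546-fold to 1.41-fold. The dispersion common to all genes corresponded to a coefficient of variation of 27.1% between libraries beyond counting noise.

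The mean and the variance of clr over the 4 ages, in natural logarithms, were used by the study to compare the variability of genes. Of the 10 genes, 9 had a mean above and a variance below the medians of all genes (-0.21 and 0.16), and only Nr0b2 did not. Of all 8704 genes, 3309 (38.0%) met both criteria. The study kept only 5’-ends with a minimum number of reads, so its medians need not be those used here. Over the genes with a mean count of at least 10 the median variance was 0.0872. The variances were 0.00159 for Cyp8b1, 0.0033 for Cyp7b1, 0.00572 for Cyp7a1, 0.00826 for Cyp27a1, 0.0087 for Slc27a5 and 0.0133 for Abcb11. They were 0.0178 for Baat, 0.0225 for Slc10a1, 0.0333 for Nr1h4 and 0.54 for Nr0b2. For Cyp8b1 and Cyp7a1 the variance was below the value that counting noise alone gives on average (0.00583 and 0.0188). For every other member it was above that value, as for Slc27a5 (0.00159), Slc10a1 (0.00416), Nr1h4 (0.00841) and Nr0b2 (0.106). As the variance falls with the level, the 8 genes with a mean count of at least 100 were set beside the 737 genes of this kind. The median variance was 0.011 for the 8 genes and 0.0264 for the 737. Only 1.22% of these 737 genes had a lower variance than Cyp8b1 and 3.53% a lower one than Cyp7b1, but 58.6% a lower one than Nr1h4.

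**Figure D3:**
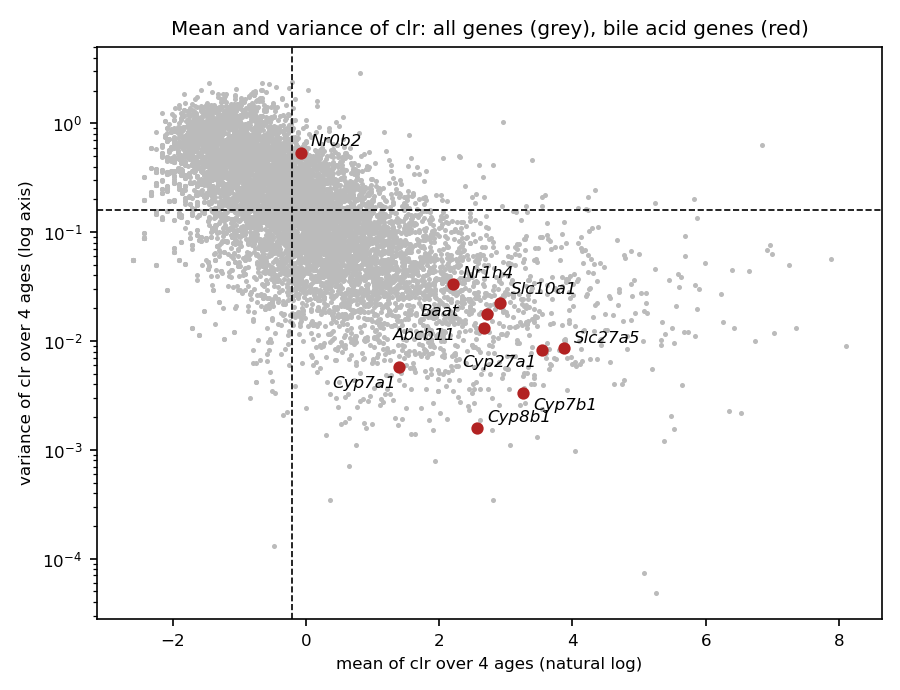
Variance (log axis) against mean of clr over the 4 ages, in natural logarithms, for the 8704 genes with a count in every library (grey) and the 10 bile acid genes (red), with the medians of all genes as dashed lines. All but Nr0b2 (variance 0.54) lie below the median variance of 0.16, with Cyp8b1 lowest (0.00159).

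The composition of the 10 genes within each library does not depend on any scaling. Slc27a5 made up 23.3% of their summed counts at 3 months (21.8 to 24.8%) and 28.0% at 9 months (26.4 to 29.6%). Cyp27a1 made up 20.9% at 3 months (19.5 to 22.4%) and 17.9% at 21 months (16.4 to 19.5%). Slc10a1 made up 9.39% at 3 months (8.40 to 10.5%) and 12.1% at 21 months (10.9 to 13.5%), and these intervals did not overlap. The share of Nr0b2 was 0.821% (0.557 to 1.21%) at 3 months and 0.165% (0.064 to 0.423%) at 21 months. A chi-square test of the table of 10 genes by 4 libraries gave a statistic of 84.7 with 27 degrees of freedom (p = 7.26e-08), again a comparison of the libraries as read. The statistic was 73.9 with 24 degrees of freedom without Nr0b2, and 58.8 with 21 without Nr0b2 and Nr1h4, alternatives chosen after seeing the data.

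Other genes of bile acid metabolism were taken as a list of 12 enzymes, 14 transporters and 14 regulators. In the edgeR trend test 0 of 9 enzymes, 0 of 10 transporters and 0 of 10 regulators that were abundant enough passed. Genes with a mean count of at least 10 were called as before, past 1.5-fold with an interval that excluded 1. At 21 over 3 months 1 gene in each class was called as higher (9.16% of all genes) and 0 as lower (11.6% of all genes). The chi-square test called 7 of 9 enzymes, 7 of 10 transporters and 4 of 10 regulators, beside 37.7% of all genes, so that the share of the regulators was near that of all genes. This test calls genes with high counts more readily, and the shares of these classes were not matched to all genes on level. The most abundant were Slco1b2, an organic anion carrier of the sinusoidal membrane, with 960, 1550, 709 and 984 counts, and Scp2, a sterol carrier and peroxisomal thiolase, with 1256, 1186, 622 and 701 counts. Slco1b2 was highest in the 9 month library, and Scp2 had a fold of 0.706 (0.643 to 0.775) at 21 over 3 months. Cyp2c70, which makes muricholic acids in the mouse, had 451, 714, 242 and 548 counts and a fold of 1.54 (1.35 to 1.74) at 21 over 3 months, but was lowest at 15 months. Ephx1, the microsomal epoxide hydrolase, was counted here in the list of transporters although it is named as an enzyme. It had 497, 371, 250 and 266 counts and a fold of 0.677 (0.581 to 0.787). Slco1a1 with 361, 353, 240 and 256 counts and Hnf4a, a transcription factor of hepatocytes, with 343, 293, 204 and 291 counts were not called by the chi-square test (adjusted p = 0.228 and 0.168).

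Fgfr4, the receptor through which FGF15 from the intestine represses Cyp7a1, was singled out after its values were seen. It had 3, 10, 14 and 28 counts, or 3.14, 10.4, 26.6 and 38.0 cpm, at 3, 9, 15 and 21 months, and so was higher in each older library. The fold at 21 over 3 months was 11.8 (3.65 to 60.7), but it rests on 3 counts at 3 months, a level that 0 counts would also allow. The chi-square test gave Fgfr4 an adjusted p of 5.53e-06. In the edgeR trend test the log2 change was 3.29 with a standard error of 0.92 (unadjusted p = 0.000667, adjusted p = 0.205), and thus did not pass. Its coreceptor Klb had 28, 28, 13 and 22 counts, with a fold of 0.994 (0.542 to 1.80). Slco1a4 was the transporter called by the fold rule, with 29, 57, 19 and 42 counts and a fold of 1.83 (1.11 to 3.05). Vdr, Fgf15 and Ch25h had 0 counts in every library, which allows up to 3.14, 3.13, 5.71 and 4.08 cpm at 3, 9, 15 and 21 months. Slc51a and Slc51b, listed under the older symbols Osta and Ostb, had 0 counts in every library except for 2 counts of Ostb at 3 months.

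**Figure D4:**
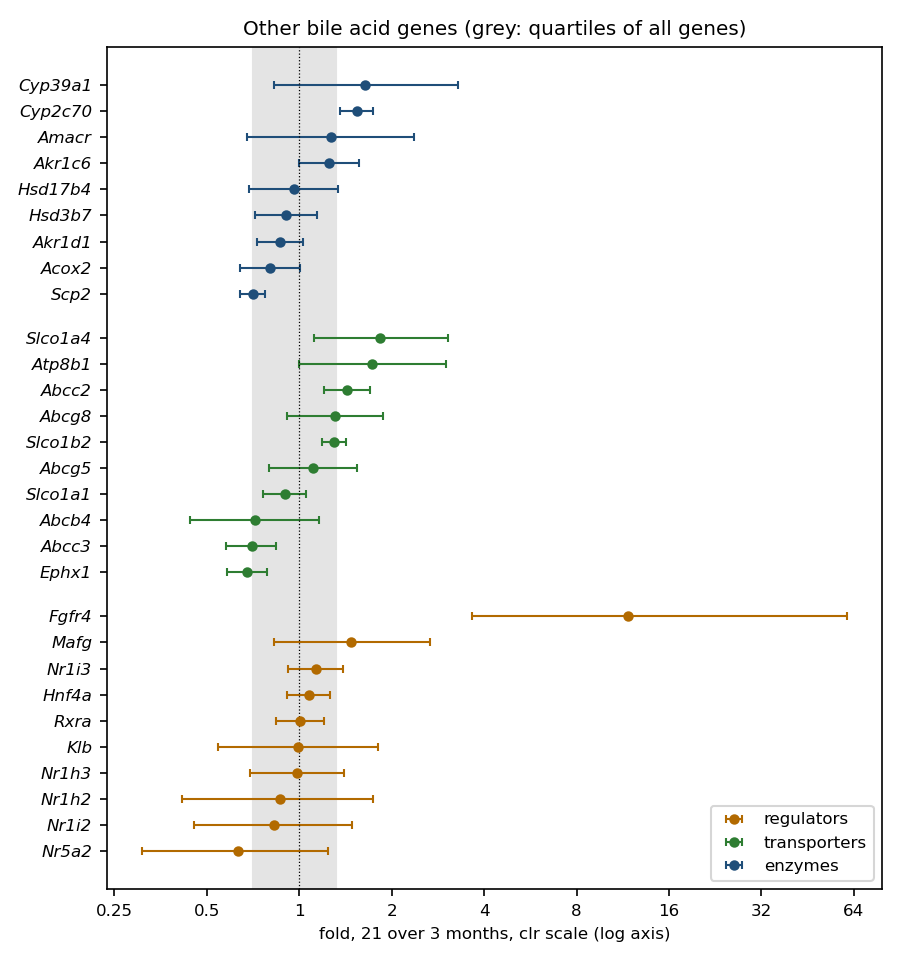
Fold-change at 21 over 3 months on the clr scale (log axis) of the other bile acid genes with a mean count of at least 10, with exact 95% Clopper-Pearson intervals, 1 pooled library per age. The grey band spans the quartiles of all genes, and Fgfr4 (11.8, from 3.65 to 60.7) lies outside it, farther than any other gene of the list. The fold of Fgfr4 rests on 3 counts at 3 months.

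The genes with the most similar course over the 4 libraries were sought for the 8 members with a mean count of at least 100, by the Euclidean distance of centred clr values among 737 genes. With so many genes and 4 points, near matches are easily found. For Cyp8b1 these were Apoe (distance 0.0167), Atp5a1 and Cyp2d22. For Cyp27a1 they were Lamp1 (0.0239), Hao1 and Adh1, and for Cyp7b1 Cxcl12 (0.038), Proc and Aldh8a1. For Slc27a5 they were Malat1 (0.0288), Serpina1b and Gsta3, and for Baat 1190003J15Rik (0.0227), Mbl2 and Fga. For Slc10a1 they were Aldh4a1 (0.0416), Tcf7l2 and Acly, for Abcb11 1300017J02Rik (0.0363), Lamp1 and Elovl5, and for Nr1h4 Gm15564 (0.0256), Azin1 and Cyp2c50.

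Summed levels of markers of other cell types differed between the libraries as well, but members of 1 list did not always go together. The 5 Kupffer cell markers summed to 550.2, 675, 696 and 773 cpm at 3, 9, 15 and 21 months, and the 5 stellate cell markers to 322, 555, 527 and 511 cpm. Among the former, Marco had a fold of 3.79 (1.80 to 8.70) at 21 over 3 months but Clec4f of 0.994 (0.760 to 1.30). The 5 markers of sinusoidal endothelium summed to 505, 407, 359 and 433 cpm, and the 3 red blood cell markers to 1084, 1710, 1244 and 991 cpm. In the endothelial list Stab2 had a fold of 0.545 (0.394 to 0.744) at 21 over 3 months and Lyve1 of 2.02 (1.12 to 3.73), while Clec4g had 142, 114, 114 and 147 cpm in the 4 libraries. The red blood cell sum followed Hbb-b1, with 905, 1576, 1137 and 838 cpm, whereas Alas2 had 154, 105, 60.9 and 111 cpm. These genes were singled out after their values were seen. The 4 lymphocyte markers together stayed between 10.4 and 22.8 cpm. Within hepatocytes, the 5 pericentral markers summed to 16831, 19635, 19056 and 19066 cpm, most of it from Cyp2e1. Their folds at 21 over 3 months were 1.19 for Cyp2e1 and for Oat, 0.719 for Glul and 0.836 for Cyp1a2. Lgr5 had 3.29, from 5 and 13 counts. The 5 periportal markers summed to 5982, 7859, 5953 and 5825 cpm, highest in the 9 month library and mostly from Cyp2f2. The part of these differences in the values of the 10 genes was not tested.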

How the data were processed

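RNA-sequencing libraries of capped 5’-ends were analysed, 1 per age of 3, 9, 15 and 21 months. The authors mapped 35 bp SOLiD reads to mm9 with the CLC Genomic workbench, and the submitters’ processing notes list HTSeq, without a version. The deposited values are raw counts of reads per gene symbol. Rows that name no gene were left out. Genes covered between 6.67% and 8.42% of all records, and between 72.2% and 76.7% were records without a unique alignment.

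Library sums were between 525772 and 958586. The members and gene lists were chosen with earlier results of these data known. Named were the 10 members, the 6 most abundant other bile acid genes (none passed the trend test), the 3 nearest profiles per member with a mean count of at least 100, and genes marked as chosen afterwards. The role-based count ratios were also chosen afterwards. Among the stretches of 35 bases that start the members’ transcripts (GENCODE M1 on NCBIM37), none had a second match in the genome with at most 1 mismatch. Tests were run with edgeR 4.0.16 (TMM, filterByExpr), DESeq2 1.42.0 and scipy 1.17.1, and tested on simulated data. All p-values use Benjamini-Hochberg adjustment over all genes tested, except that of the table of 10 genes and those given as unadjusted. Alternatives were other scale factors, filters, thresholds, a pseudocount of 1 and leaving out each age. Other assays of the study were not analysed here.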

Additional observations from a re-analysis of the deposited data

How the results depend on the processing

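With 1 library per age, leaving out a library removes an age, and counting error is the only error that the depth gives. No paired analysis was possible because each age has 1 library and the labels carry no replicate numbers. The age trend called 0 of the 10 genes under each alternative, including DESeq2’s Wald test and each age left out, while the calls over all genes went from 6 to 0 with DESeq2, 16 without the 15 month and 23 without the 21 month library. The fitted slope changed its sign in 1 of 7 alternatives for Cyp7a1, Cyp8b1, Slc27a5, Baat, Slc10a1 and Nr1h4. The chi-square test called 6 of the 10 genes, beside 37.7% of all genes, a share that was not matched on level. It called 2 without the 3 month library (25.5% of all genes), 5 without the 9 month (29.6%), 5 without the 15 month (28.7%) and 4 without the 21 month library (29.6%). With library totals it called 5 (37.7%), with TMM 4 (36.9%) and without the filter 5 (25.3%). The single call at 9 over 3 months (Nr1h4) went to 0 with library totals, with the 7 marker genes and with a 2-fold threshold. The summed counts at 9 over 3 months gave 0.924 with the 7 marker genes, and those at 15 over 3 months gave 1.01 with library totals and 1.01 with the 7 marker genes. The call of Nr0b2 at 21 over 3 months was kept under the 4 other scalings and the 2-fold threshold. The scale of the 21 over the 3 month library lay between 0.767 and 0.791 in all scalings. They could therefore hardly move a change from 25 to 4 counts, and they do not test the 4 counts of 1 library. Of the 10 genes, 9 met both clr criteria under each alternative except without the 21 month library, where 10 did. The composition p ranged from 1.57e-09 to 0.042 when an age was left out.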

Other observations

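Some further genes with low counts, from the lists of bile acid genes and of bile duct markers, were picked out after their values were seen. Ppargc1a, a coactivator of nuclear receptors in fasting, had 11, 9, 4 and 1 counts at 3, 9, 15 and 21 months, and its fold at 21 over 3 months was 0.115 (0.00267 to 0.791). Slc10a2, the bile acid carrier of bile duct cells and ileum, had 0, 13, 1 and 4 counts. Spp1, which bile duct cells express among others, had 13, 10, 16 and 1 counts, a fold of 0.0973 (0.00229 to 0.648) at 21 over 3 months, with a chi-square adjusted p of 0.00188. Sox9, another marker of bile duct cells, had 10, 5, 5 and 15 counts. Atp8b1, a lipid flippase of the canalicular membrane, had 25, 15, 7 and 34 counts, or 26.2, 15.6, 13.3 and 46.2 cpm, with a chi-square adjusted p of 0.0019.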
